A study of Mus musculus with 6 samples.

Results

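The genes described here are 10 genes used as marks of T cells that have met antigen: Cd44, Ly6c1, Ly6c2, S100a4, S100a6, S100a11, Lgals1, Lgals3, Anxa2 and Ahnak. They were chosen by their symbols, with earlier results of these data known, from the 25239 genes counted in each library. All 10 were listed in the files and passed the filter on low counts with 12117 genes in all. They were measured by mRNA sequencing of T cells sorted from the spleens of C57BL/6 mice as TCRb+, CD4+, CD44-negative and CD127+, a gate meant to hold naive cells. The 3 groups were Ikzf3 +/+, Ikzf3 +/N159S and Ikzf3 N159S/N159S, with 2 libraries each, and no group had been treated. N159S is a single residue change in Aiolos, the zinc finger transcription factor of the Ikaros family that Ikzf3 encodes. It was put into the germline by CRISPR-Cas9, so every cell of the mouse that expresses Aiolos, B cells and other lymphocytes included, can make the variant protein. Neither the ages nor the sexes of the mice were given in the sources used here. The question was whether cells that the gate calls CD44-negative differ between genotypes in the transcripts that usually accompany antigen experience.

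CD44 is a hyaluronan receptor that naive CD4+ T cells carry at a low level and that activated and memory cells keep at a high level. Memory cells also gain transcripts of small calcium-binding proteins (S100 genes, annexins), of galectins and of the scaffold protein AHNAK, while Ly6C, a GPI-anchored surface antigen, is carried by part of the naive and part of the memory cells. These genes are used together as a signature of experienced cells although their proteins act in different places.

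Between 11696461 and 17317260 reads were counted on genes in a library, and between 3141 and 5473 of them fell on the 10 genes. Levels are given as CPM, the counts scaled to the size of the library after TMM, whose factors ran from 0.979 to 1.03. A gene was called where its FDR was under 0.05 (edgeR's quasi-likelihood test, Benjamini-Hochberg adjustment over the 12117 genes, 1 fit of the 6 libraries). For 1 gene, 2 libraries against 2 allow no two-sided exact permutation p below 0.333, so every FDR depends on the spread that the fit shares across genes. The +/N159S libraries had Xist, the RNA that coats the inactive X chromosome, at 731 and 824 CPM and the other 4 libraries at 0.773 to 1.98 CPM, so each comparison with this genotype also compares libraries that differ in sex-linked transcripts. Ikzf3 itself was at 157 and 154 CPM in +/+, 168 and 152 CPM in +/N159S and 197 and 203 CPM in N159S/N159S T cells (FDR = 0.0523 for N159S/N159S against +/+, edgeR, Benjamini-Hochberg adjusted). The T cell markers Cd3e (284 to 429 CPM) and Cd4 (681 to 994 CPM) were abundant in every library.

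The 10 genes did not move as a block. In N159S/N159S against +/+ T cells, Lgals1, Anxa2 and Ahnak rose and Ly6c1 fell, and the other 6 genes were not called. These 4 of 10 stand beside 5.21% of all tested genes that were called in either direction, 3.1% higher and 2.1% lower. The 10 genes were chosen with earlier results of these data known, so such counts are a description. In +/N159S against +/+ T cells, only Ly6c1 was called, and it fell, beside 1.75% of tested genes called in either direction and 1.16% called higher. Between the 2 genotypes with the variant, S100a4 alone was called, lower in N159S/N159S, beside 1.49% of tested genes. The median log2 fold change of the 10 genes was −0.37 in N159S/N159S and 0.38 in +/N159S T cells, against 0.00018 and 0.011 over all tested genes. The libraries of N159S/N159S and +/+ did not overlap for 8 of the 10 genes, 3 of them higher and 5 lower in the homozygote, beside 48.3% of tested genes. For +/N159S and +/+ T cells this held for 7 genes, 5 higher and 2 lower, beside 47.1% of tested genes. Both comparisons share the +/+ libraries. In a sorted but mixed sample, fewer cells that carry a transcript and less of it per cell cannot be told apart.

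**Figure D1:**
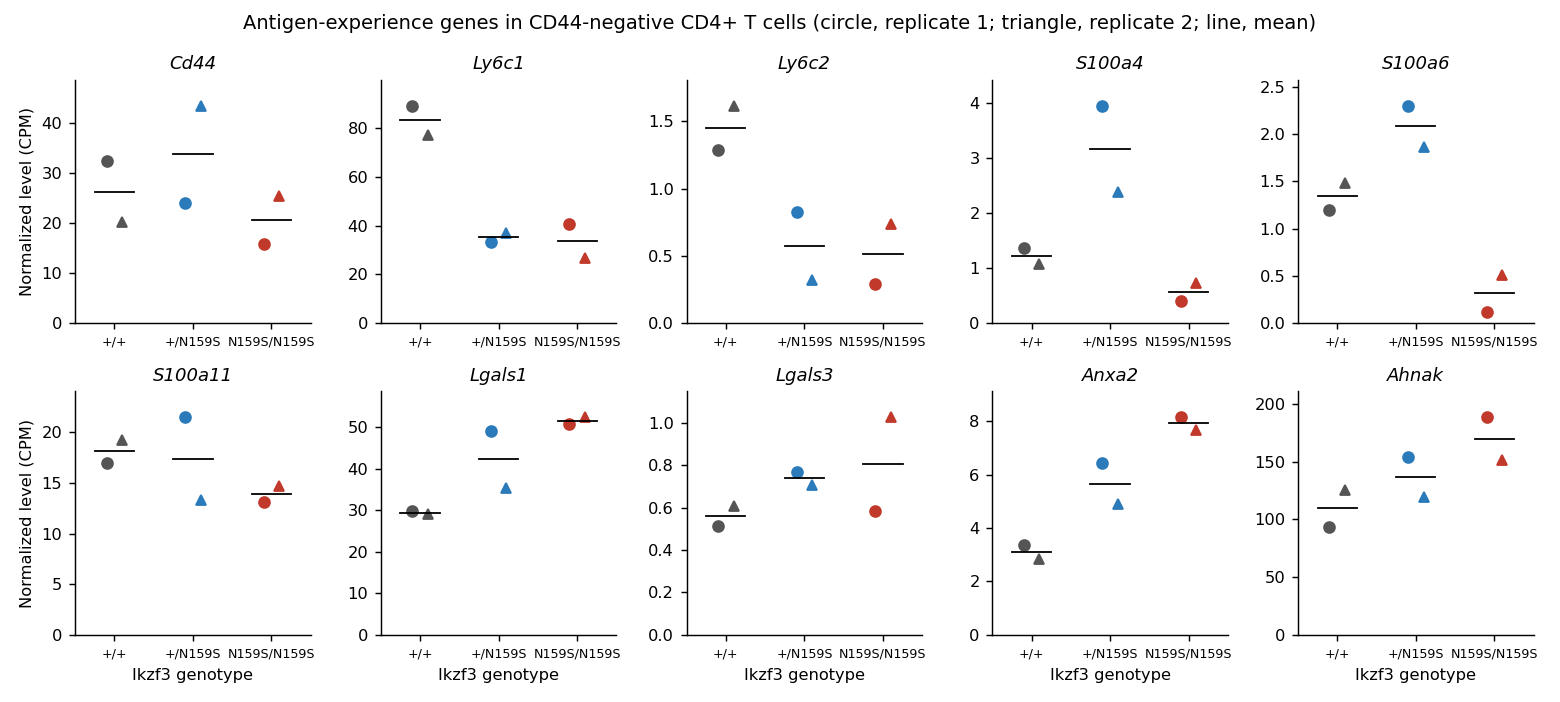
Level of each of the 10 genes (y axis, CPM from 0, a scale of its own per gene) in the 6 libraries by Ikzf3 genotype (x axis); circles are replicate 1, triangles replicate 2 and lines the mean of 2. Ly6c1 is at 77.2 and 89.1 CPM in +/+ and at 26.9 to 40.7 CPM in the other 4 libraries, Anxa2 and Lgals1 are highest in N159S/N159S, and S100a4 and S100a6 are highest in +/N159S.

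Per length, the genes lay far apart. Divided by the length of the merged exons of their protein-coding transcripts (GENCODE M21), the +/+ levels in RPKM (CPM per kilobase of exon) were 49.6 ± 5.02 for Ly6c1, 36.8 ± 0.517 for Lgals1 and 35.5 ± 3.09 for S100a11 (SD, n = 2). The same quantity was 5.63 ± 1.16 for Ahnak and 4.65 ± 1.52 for Cd44, and from 0.302 to 2.10 for S100a4, Anxa2, Ly6c2, S100a6 and Lgals3. Lgals1 and S100a11 did not differ beyond their spread, nor did Ahnak and Cd44. Reads were counted on refGene genes, whose lengths may differ from the GENCODE lengths used, so the order across genes is approximate. In N159S/N159S T cells Lgals1 stood first, at 64.5 RPKM, and Ly6c1 was at 20.2.

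Cd44, the gene of the marker that the gate was drawn on, lies on chromosome 2 of mm10 (GRCm38) from 102811141 to 102901665 on the minus strand. It had 377 and 301 reads in +/+, 407 and 676 in +/N159S, and 273 and 347 in N159S/N159S T cells. The levels were 32.4 and 20.3 CPM, 24.0 and 43.5 CPM, and 15.9 and 25.4 CPM in the same order. The 3 genotypes overlapped, and the highest value was that of +/N159S replicate 2. The log2 fold change was −0.35 (standard error 0.30, FDR = 0.607) in N159S/N159S and 0.37 (standard error 0.29, FDR = 0.582) in +/N159S T cells (edgeR, Benjamini-Hochberg adjusted). Its sign turned when 1 library was left out: to 0.020 in the homozygote without +/+ replicate 1, and to −0.12 in the heterozygote without +/N159S replicate 2. Between the variant genotypes it was −0.72 (standard error 0.30, FDR = 0.362, edgeR, Benjamini-Hochberg adjusted), not called here but called with no filter (FDR = 0.000311). It was also called with a term marking the library of each genotype with more genes detected, a mark taken from the counts themselves (FDR = 0.000468). Cd44 reads were present in every library of cells sorted as CD44-negative.

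Ly6c1 and Ly6c2 encode the 2 forms of Ly6C. They lie 59327 bases apart on the minus strand of chromosome 15, Ly6c1 from 75044018 to 75048830 and Ly6c2 from 75108158 to 75111970. Their coding sequences are near copies: of 396 bases, 9 differ (97.7% identical), and the longest run without a difference is 188 bases. The rest of their exons (1677 exon bases in all for Ly6c1 and 868 for Ly6c2) was not compared and may also separate reads. The first 120 coding bases hold 6 of the 9 differences. These are shown in capitals because they separate coding reads of the 2 genes (GENCODE M21, 5′ to 3′):
Ly6c1: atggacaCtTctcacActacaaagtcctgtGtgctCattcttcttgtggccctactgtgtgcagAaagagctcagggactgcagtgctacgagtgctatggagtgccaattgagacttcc
Ly6c2: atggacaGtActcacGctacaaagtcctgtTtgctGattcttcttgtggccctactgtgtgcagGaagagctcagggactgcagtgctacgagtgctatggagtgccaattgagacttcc
Reads inside the shared run fit both genes and could not be assigned to 1 of them by sequence. Entries with no unique alignment were counted apart from genes (4.23 to 4.92% of entries in a library). Both genes may therefore be undercounted, and the split between them is uncertain. Ly6c1 took nearly all the reads, with 1038 and 1148 in +/+, 567 and 576 in +/N159S, and 700 and 367 in N159S/N159S T cells. Its level was 89.1 and 77.2 CPM in +/+, 33.5 and 37.1 CPM in +/N159S, and 40.7 and 26.9 CPM in N159S/N159S. Both genotypes with the variant lay below both +/+ libraries and overlapped each other. Ly6c1 fell by 1.29 on the log2 scale in N159S/N159S (standard error 0.17, FDR = 0.00119), 2.45-fold, and by 1.24 in +/N159S T cells (standard error 0.17, FDR = 0.00546), 2.36-fold (edgeR, Benjamini-Hochberg adjusted). The heterozygote thus held 0.958 of the homozygote's change. The difference between these 2 genotypes was −0.054 (standard error 0.17), and on the log2 scale +/N159S differed from the midpoint between the other genotypes by −0.59 (standard error 0.15, FDR = 0.115, edgeR, Benjamini-Hochberg adjusted), not called here but called under 5 alternatives, DESeq2 among them. Ly6c1 was called in both comparisons with +/+ under all 15 alternatives, with log2 fold changes of −1.63 to −1.02 and −1.34 to −1.13. Ly6c2 had 5 to 24 reads, with 1.29 and 1.61 CPM in +/+, 0.826 and 0.322 CPM in +/N159S, and 0.291 and 0.733 CPM in N159S/N159S. Its libraries were also lower in both variant genotypes without overlap, but the log2 fold changes of −1.54 (standard error 0.64) and −1.32 (standard error 0.62) were not called (FDR = 0.227 and 0.324, edgeR, Benjamini-Hochberg adjusted). With the reads of both genes added together, the log2 fold changes were −1.30 and −1.24. This sum does not bring back reads that were set aside as not unique.

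Lgals1, Anxa2 and Ahnak were the 3 genes that rose in N159S/N159S T cells. Lgals1 encodes galectin-1, a secreted lectin that binds galactosides on T cells, and lies on chromosome 15 from 78926725 to 78930465 on the plus strand. It was at 29.7 and 29.1 CPM in +/+, 49.2 and 35.4 CPM in +/N159S, and 50.9 and 52.4 CPM in N159S/N159S. Every library with the variant was above both +/+ libraries. The log2 fold change was 0.81 (standard error 0.15, FDR = 0.00898, edgeR, Benjamini-Hochberg adjusted) in the homozygote, and it lay between 0.80 and 0.83 with each library left out. The call was lost without +/+ replicate 1 (FDR = 0.0516) or replicate 2 (FDR = 0.0706, edgeR, Benjamini-Hochberg adjusted). In the heterozygote the log2 fold change of 0.53 (standard error 0.15) was not called (FDR = 0.108, edgeR, Benjamini-Hochberg adjusted). It ran from 0.26 to 0.75 with each library left out, and was called without +/N159S replicate 2 (FDR = 0.0216, edgeR, Benjamini-Hochberg adjusted).

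Anxa2 encodes annexin A2, a calcium-dependent phospholipid-binding protein that partners S100 proteins at the membrane, and lies on chromosome 9 from 69453620 to 69491795 on the plus strand. It had 39 and 42 reads in +/+, 109 and 76 in +/N159S, and 140 and 105 in N159S/N159S. The levels were 3.35 and 2.83 CPM, 6.43 and 4.89 CPM, and 8.15 and 7.69 CPM in this order, so that no library of 1 genotype overlapped another genotype. Anxa2 rose 2.58-fold in the homozygote, or by 1.37 on the log2 scale (standard error 0.25, FDR = 0.00900, edgeR, Benjamini-Hochberg adjusted). It was 0.88 (standard error 0.25, FDR = 0.114, edgeR, Benjamini-Hochberg adjusted) in the heterozygote. Without +/+ replicate 2 the homozygote's log2 fold change of 1.24 was not called (FDR = 0.0799, edgeR, Benjamini-Hochberg adjusted).

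Ahnak encodes a very large scaffold protein that binds the annexin A2 complex and calcium channel subunits. It lies on chromosome 19 from 8989284 to 9076914 on the plus strand. Ahnak had 93.8 and 126 CPM in +/+, 154 and 120 CPM in +/N159S, and 188 and 151 CPM in N159S/N159S. The homozygote's libraries lay above those of +/+, while those of the heterozygote overlapped both. Ahnak rose by 0.63 on the log2 scale in N159S/N159S (standard error 0.16), with an FDR of 0.0498 (edgeR, Benjamini-Hochberg adjusted), just under the threshold. It was not called with DESeq2's size factors (FDR = 0.0511), without +/+ replicate 1 (FDR = 0.307) or without N159S/N159S replicate 1 (FDR = 0.274, all by edgeR, Benjamini-Hochberg adjusted). In +/N159S it was 0.31 (standard error 0.16, FDR = 0.378, edgeR, Benjamini-Hochberg adjusted), and from 0.12 to 0.54 with each library left out.

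The 250 bases before the RefSeq start of Anxa2 (chr9:69453433-69453682, plus strand) and of Ahnak (chr19:8989034-8989283, plus strand) are shown because both genes rose in the homozygote (GRCm38.p6, 5′ to 3′). RefSeq places the start of Anxa2, and that of S100a6 below, downstream of the GENCODE start given here. The ends of these windows therefore lie inside the GENCODE gene. This also holds for the window of S100a11 and the second window of Ly6c1 and of Ly6c2. The Lgals3 window lies wholly inside its GENCODE gene. Capitals mark TGGGAA, which holds the GGGA core that Ikaros family proteins bind, and TGANTCA, the AP-1 element, each searched on both strands:
Anxa2: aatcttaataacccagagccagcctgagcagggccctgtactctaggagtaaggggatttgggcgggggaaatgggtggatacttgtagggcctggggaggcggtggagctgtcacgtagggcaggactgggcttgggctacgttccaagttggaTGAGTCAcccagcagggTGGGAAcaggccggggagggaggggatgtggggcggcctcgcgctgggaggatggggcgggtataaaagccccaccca
Ahnak: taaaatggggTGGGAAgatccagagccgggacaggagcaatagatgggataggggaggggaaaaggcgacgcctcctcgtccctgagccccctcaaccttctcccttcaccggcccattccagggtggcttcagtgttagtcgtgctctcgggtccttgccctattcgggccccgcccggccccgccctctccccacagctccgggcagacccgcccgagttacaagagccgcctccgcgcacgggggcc
Of the 10 genes, 9 had such a sequence and Lgals1 had none in the table. TGGGAA was in the window of 6 of the 9 (Cd44, Ly6c2, S100a4, S100a6, Anxa2 and Ahnak) and in 21.6% of all 32851 windows. TGANTCA was in that of 2 (S100a11 and Anxa2) and in 6.75% of all windows. Neither was in either window of Ly6c1, the gene called in both comparisons with +/+. Both windows of Ly6c1 do hold the shorter GGGA, which was not counted.

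**Figure D2:**
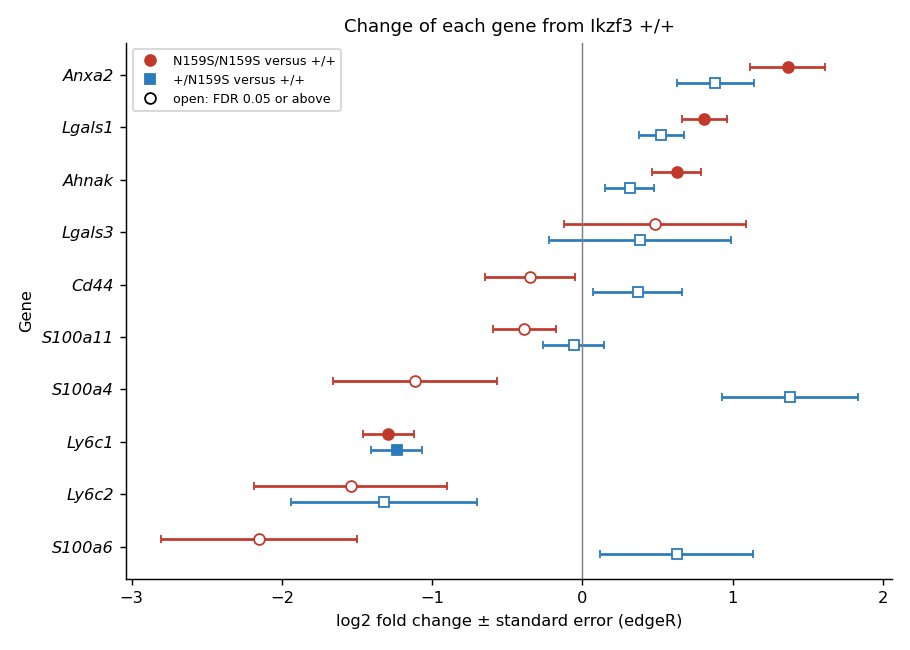
Log2 fold change against +/+ (x axis) of each gene (y axis) in N159S/N159S (red circles) and +/N159S (blue squares) T cells; bars are standard errors of edgeR's fit, and filled symbols have an FDR under 0.05. Ly6c1 is filled in both comparisons, at −1.29 and −1.24, while Anxa2, Lgals1 and Ahnak are filled in N159S/N159S alone; the S100a4 and S100a6 symbols lie on opposite sides of 0.

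S100a4, S100a6 and S100a11 encode small calcium-binding proteins of the EF-hand type. On chromosome 3, plus strand, S100a4 lies from 90603771 to 90606045 and S100a6 from 90612882 to 90624181, 6836 bases apart, and S100a11 lies from 93520488 to 93526287. A gene model that is not in the count files, Gm42674, shares 302 exon bases with S100a4 on the same strand. The windows before S100a4 (chr3:90603520-90603769) and S100a6 (chr3:90612644-90612893) are shown because these neighbours had their highest and lowest levels in the same genotypes, with TGGGAA on either strand in capitals (RefSeq, GRCm38.p6, plus strand, 5′ to 3′):
S100a4: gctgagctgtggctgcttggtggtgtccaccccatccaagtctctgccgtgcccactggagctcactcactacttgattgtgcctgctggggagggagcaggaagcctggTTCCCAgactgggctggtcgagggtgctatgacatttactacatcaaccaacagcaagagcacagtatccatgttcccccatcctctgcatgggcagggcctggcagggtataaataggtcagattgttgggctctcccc
S100a6: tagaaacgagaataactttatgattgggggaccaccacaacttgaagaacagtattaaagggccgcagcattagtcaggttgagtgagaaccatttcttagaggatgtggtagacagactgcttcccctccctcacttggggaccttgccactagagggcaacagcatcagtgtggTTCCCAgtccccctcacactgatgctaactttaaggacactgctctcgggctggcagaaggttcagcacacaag
S100a4 had 16 and 16 reads in +/+, 67 and 37 in +/N159S, and 7 and 10 in N159S/N159S T cells. Its level was 1.37 and 1.08 CPM, 3.95 and 2.38 CPM, and 0.407 and 0.733 CPM in that order, without overlap between any genotypes. S100a4 fell by 2.49 on the log2 scale from the heterozygote to the homozygote (standard error 0.49, FDR = 0.0317), and +/N159S lay above the midpoint of the other genotypes by 1.94 (standard error 0.38, FDR = 0.0432, both by edgeR, Benjamini-Hochberg adjusted). It was the only one of the 10 genes with a called departure from the midpoint, beside 0.933% of tested genes. Against +/+, neither 1.38 in the heterozygote (standard error 0.45, FDR = 0.160) nor −1.11 in the homozygote (standard error 0.55, FDR = 0.314) was called (edgeR, Benjamini-Hochberg adjusted). The call between the variant genotypes was lost without +/N159S replicate 1 (FDR = 0.229), N159S/N159S replicate 1 (FDR = 0.208) or replicate 2 (FDR = 0.105, all by edgeR, Benjamini-Hochberg adjusted), and the departure from the midpoint was called in none of the fits that left 1 library out.

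S100a6 had 14 and 22 reads in +/+, 39 and 29 in +/N159S, and 2 and 7 in N159S/N159S. That was 1.20 and 1.48 CPM, 2.30 and 1.87 CPM, and 0.116 and 0.513 CPM. The genotypes did not overlap, in the order of S100a4. Its log2 fold change was −2.15 (standard error 0.65, FDR = 0.0929) in N159S/N159S against +/+ and −2.78 (standard error 0.62, FDR = 0.0560) against +/N159S (edgeR, Benjamini-Hochberg adjusted), neither of them called. Both were called with no filter (FDR = 0.0110 and 0.000156), with the term for genes detected (FDR = 0.0297 and 0.00591) and by the likelihood ratio test (FDR = 0.00627 and 7.5e-05), and the second also by DESeq2 (FDR = 0.0237). S100a11 was read more deeply, at 17.0 and 19.2 CPM in +/+, 21.5 and 13.3 CPM in +/N159S, and 13.1 and 14.7 CPM in N159S/N159S. It was not called in any comparison, with log2 fold changes of −0.39 (standard error 0.21, FDR = 0.366) in the homozygote and −0.058 (standard error 0.20, FDR = 0.923) in the heterozygote against +/+ (edgeR, Benjamini-Hochberg adjusted). Lgals3, the gene of galectin-3, lies on chromosome 14 from 47367751 to 47386160 on the plus strand and had 6 to 14 reads, or 0.515 to 1.03 CPM. Its difference of 0.48 on the log2 scale in the homozygote (standard error 0.60, FDR = 0.745, edgeR, Benjamini-Hochberg adjusted) was smaller than its error, and no change was detectable at this depth.

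B cell and regulatory T cell transcripts, each summed over its list, were highest in the libraries in which S100a4 and S100a6 were highest. The 9 B cell markers summed to 474 and 769 CPM in +/N159S, against 180.1 and 277 CPM in +/+ and 182 and 120.3 CPM in N159S/N159S; of them 5 were called higher and 1 lower in the heterozygote than in +/+, 3 lower in the homozygote than in +/+, and 8 lower in the homozygote than in the heterozygote. The defining marker Cd79a was at 32.6 and 47.7 CPM in +/N159S and at 7.47 to 22.9 CPM in the other libraries. The 6 regulatory T cell markers summed to 166 and 145 CPM in +/N159S and to 98.9 to 110 CPM elsewhere, with Foxp3, the transcription factor of regulatory T cells, at 30.2 and 16.7 CPM against 5.71 to 11.2 CPM. Of the 6, 1 was called in +/N159S against +/+, and it was higher. Foxp3 was not called there (FDR = 0.069) or between the variant genotypes (FDR = 0.0557, both by edgeR, Benjamini-Hochberg adjusted). For Ctla4 and Tnfrsf4 the +/N159S libraries were not both the highest. Within +/N159S, replicate 1 was higher in S100a4, S100a6 and Foxp3 and replicate 2 in Cd79a. The 12 myeloid markers, whose cells are rich in S100 and galectin transcripts, summed to 59.7 to 82.7 CPM in all 6 libraries. Cd68 and Cst3 were the highest of them in +/+, at means of 26.7 and 25.8 CPM, and weigh most in this sum. None of the 9 tested was called in either comparison with +/+. An unadjusted p under 0.05 was found for 4 of the 9 in N159S/N159S and 3 in +/N159S (edgeR's quasi-likelihood test), beside 18.4 and 16.3% of all tested genes. Of the 4 in N159S/N159S, Lyz2, S100a8 and S100a9 were higher than in +/+ (log2 fold changes 0.97, 1.07 and 1.06) and Cd68 was lower (−0.75). Between the variant genotypes 1 of the 9, S100a9, a neutrophil gene, was called, and it went the other way to S100a4, with 2.60 and 0.966 CPM in +/N159S and 5.76 and 10.3 CPM in N159S/N159S (log2 fold change 2.14, standard error 0.44, FDR = 0.0380, edgeR, Benjamini-Hochberg adjusted). It is named after its values were seen. The part of these cells in the levels of S100a4, S100a6, Lgals1, Anxa2 and Ahnak was not tested.

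**Figure D3:**
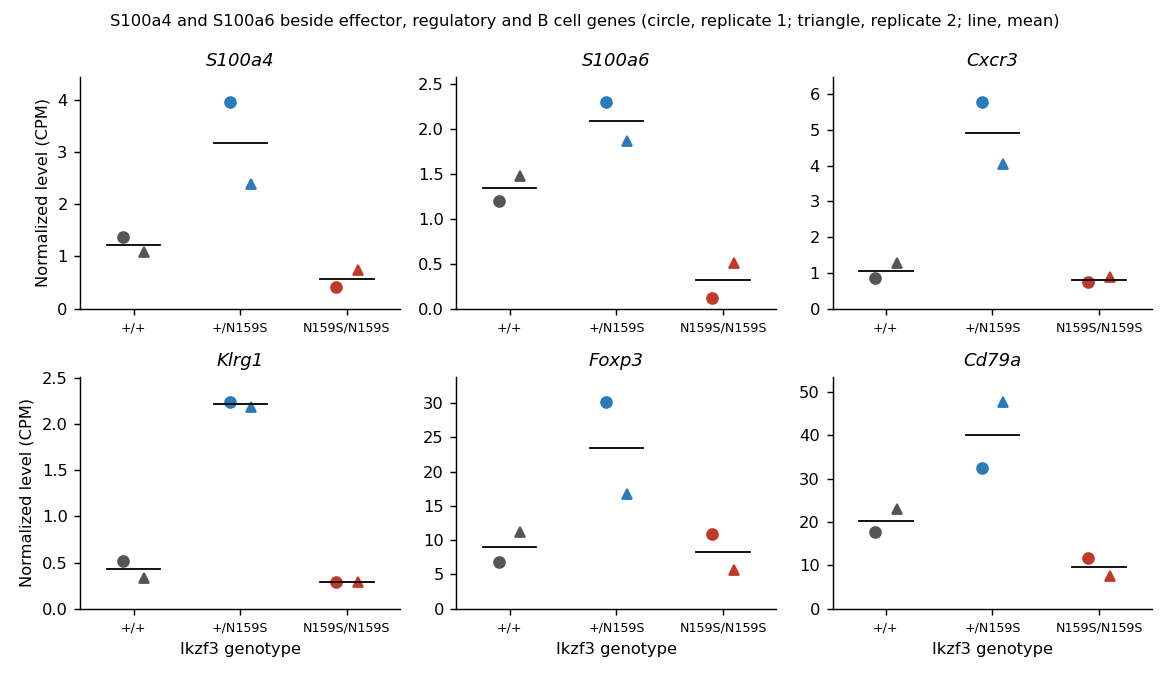
Levels (y axis, CPM from 0) of S100a4 and S100a6 beside the effector genes Cxcr3 and Klrg1, the regulatory T cell gene Foxp3 and the B cell gene Cd79a, by Ikzf3 genotype (x axis); circles are replicate 1, triangles replicate 2 and lines the mean of 2. All 6 genes have both +/N159S libraries above the other 4 libraries, with Cxcr3 at 5.78 and 4.06 CPM against 0.756 to 1.28 CPM. Other genes of these lists did not all go this way. Of 39 effector and memory genes tested, 21 lay above +/+ in +/N159S without overlap and 6 below, Ly6a among them. Of all tested genes, 47.1% did not overlap in this comparison, in either direction. The regulatory T cell gene Ctla4 overlapped +/+. The B cell gene Fcer2a was lower, at 1.06 and 2.25 CPM in +/N159S against 7.73 and 14.1 CPM in +/+.

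Of 40 other effector and memory genes, 39 were tested. This list was also chosen with earlier results of these data known, so its counts are a description. In N159S/N159S against +/+ T cells 4 rose and 2 fell, beside 3.1% of all tested genes called higher and 2.1% lower. Lmna, which encodes lamins A and C of the nuclear envelope, rose by 2.08 (standard error 0.20, FDR = 0.000143, edgeR, Benjamini-Hochberg adjusted), from 5.93 and 4.51 to 20.2 and 23.7 CPM. Il18r1, a chain of the interleukin-18 receptor, rose by 0.89, Capg, an actin-capping protein, by 0.60, and the transcription factor gene Bhlhe40 by 1.19 on the log2 scale. Il2rb, the beta chain of the interleukin-2 receptor, fell by 1.52 on the log2 scale, from 24.2 and 33.4 to 10.4 and 9.67 CPM, and Ly6a, which encodes Sca-1 and is a relative of Ly6c1, fell by 1.07. In +/N159S T cells 7 of the 39 rose and none fell (edgeR), beside 1.75% of tested genes called in either direction and 1.16% called higher. At an unadjusted p under 0.05 in either direction there were 19 of the 39 in the homozygote and 17 in the heterozygote (edgeR's quasi-likelihood test), beside 18.4 and 16.3% of all tested genes. The 7 called in +/N159S T cells included Capg (0.85), Il18r1 (0.64), the transcription factor gene Maf (1.37) and Hopx (1.03), as log2 fold changes. Cxcr3, a chemokine receptor of type 1 helper cells, rose by 2.18 and Klrg1, a receptor of late effector cells, by 2.38. Plac8, the last of the 7, rose from 1.89 and 2.29 to 6.91 and 12.5 CPM. In the homozygote Cxcr3, Klrg1, Maf, Plac8 and Hopx were not called, at −0.41, −0.51, 0.33, 0.20 and 0.74. Tested between the variant genotypes, 4 of them were lower in the homozygote: Cxcr3 (−2.59, FDR = 0.0107), Klrg1 (−2.89, FDR = 0.0249), Maf (−1.04, FDR = 0.0200) and Plac8 (−2.00, FDR = 0.0117, edgeR, Benjamini-Hochberg adjusted), as S100a4 was, while Hopx was not called (−0.29, FDR = 0.642). Their high level in +/N159S libraries lies beside the B cell and regulatory T cell transcripts given above, whose part in it was not tested. These libraries also differ from the rest in Xist, so genotype and sex-linked differences cannot be told apart here. The count in +/N159S was 3 without +/+ replicate 1, 4 without +/+ replicate 2 and 4 without +/N159S replicate 1.

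Of 16 naive T cell genes, 3 fell and 1 rose in N159S/N159S, beside 2.1% of all tested genes called lower and 3.1% higher. Lef1, a transcription factor gene of naive cells, was at 532 ± 75.0 CPM in +/+, 442 ± 73.3 CPM in +/N159S and 350 ± 59.3 CPM in N159S/N159S (SD, n = 2). It fell by 0.60 on the log2 scale in the homozygote (standard error 0.15, FDR = 0.0412, edgeR, Benjamini-Hochberg adjusted). Dapl1 fell by 1.02 and Nsg2 by 0.37, and Klf2, which encodes a transcription factor of quiescent T cells, rose by 0.54 in the homozygote. In the heterozygote 1 of the 16 fell, Il7r, by 0.49 (standard error 0.098, FDR = 0.0327, edgeR, Benjamini-Hochberg adjusted), beside 1.75% of tested genes called in either direction. Il7r was also lower without overlap in the homozygote, by 0.35, but was not called there (FDR = 0.0735, edgeR, Benjamini-Hochberg adjusted). Il7r encodes CD127, on which the cells were gated, and the part of the gate in its level was not tested.

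The relatives of the 10 genes were mostly too low to test. None of 5 tested of 14 other S100 genes, 7 of 11 other annexin genes or 5 of 8 other galectin genes was called in either comparison with +/+. At an unadjusted p under 0.05 there were 3, 2 and 0 of them in N159S/N159S and 2, 1 and 0 in +/N159S T cells (edgeR's quasi-likelihood test). Between the variant genotypes S100a9 was called, as given above, and no other gene of these 3 lists. Of 12 other Ly6 genes 4 were tested, and Ly6a (above) and Ly6d fell in the homozygote. Ly6d, a marker of B lineage cells, was at 3.09 and 5.79 CPM in +/+ and 1.45 and 1.39 CPM in N159S/N159S, and fell by 1.65 on the log2 scale (standard error 0.37, FDR = 0.0267, edgeR, Benjamini-Hochberg adjusted). The B cell markers Ms4a1 and Cd79a fell in the same comparison, by 1.56 (FDR = 0.00713) and 1.07 (FDR = 0.0271, edgeR, Benjamini-Hochberg adjusted), and their part in the level of Ly6d was not tested.

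The mean of the 10 genes' scaled log2 CPM did not follow the genotype. It was −0.12 and −0.057 SD in +/+, 0.54 and −0.045 SD in +/N159S, and −0.43 and 0.12 SD in N159S/N159S T cells. Among 8716 other genes whose mean log2 CPM was 3 or more, those most like this mean over the 6 libraries were Mtmr9 (Pearson's r = 0.976), Mtbp (0.962), Gbp7 (0.958), Zfp24 (0.954) and Ddt (0.938). Each has +/N159S replicate 1 as its highest library and N159S/N159S replicate 1 as its lowest, as the mean does, within a narrow range (16.9 to 23.0 CPM for Mtmr9). The 6 points share libraries with the genes they are compared with, and these coefficients are a description.

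**Figure D4:**
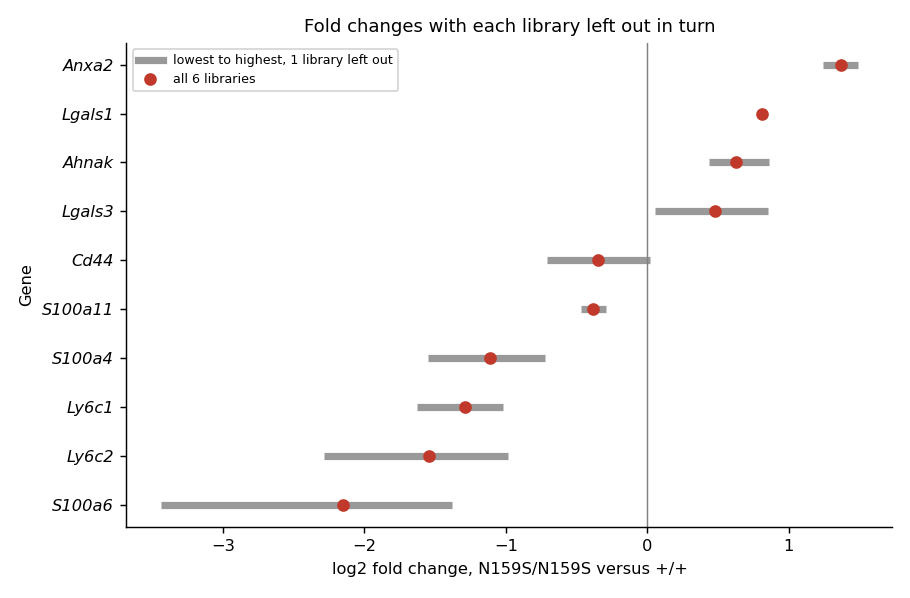
Log2 fold change of each gene (y axis) in N159S/N159S against +/+ (x axis) in the fit of all 6 libraries (red points), with the lowest to highest value when 1 library is left out (grey bars). Ly6c1 stays between −1.63 and −1.02 and Anxa2 between 1.24 and 1.49, while the bar of S100a6 runs from −3.44 to −1.38 and that of Cd44 ends above 0.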

How the data were processed

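mRNA of TCRb+CD4+CD44-CD127+ cells sorted from spleen was sequenced in 6 libraries, 2 per genotype. The authors trimmed reads with Trimmomatic, aligned them to mm10 with HISAT2, counted them on refGene genes with HTSeq and deposited raw counts per gene; whether strand was used was not stated. Rows for uncounted reads were left out of library sizes and tests, and 50.7 to 57.7% of all entries fell on genes. The software was edgeR 4.0.16 under R 4.3.3, with filterByExpr by genotype (at least 10 counts, 15 in total), TMM scaling, 1 coefficient per genotype, the quasi-likelihood test and Benjamini-Hochberg adjustment over 12117 genes. The fit was tested on simulated counts. Alternatives were DESeq2 1.42.0, its size factors, other filters, edgeR's likelihood ratio test, a replicate block, a term for the library with more genes detected, fits of 2 genotypes, the summed Ly6c genes and each library left out. Positions and lengths came from GENCODE M21 and promoter windows from RefSeq (GRCm38.p6). Log2 CPM used a prior count of 2.

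The 10 genes and all lists were chosen with earlier results of these data known. Named genes were the 10, the members of the other gene lists that were called (at most 8 per list), defining cell type markers, Ikzf3 and the 5 genes most like the mean of the 10. The replicates were compared as deposited, and the 2 libraries of a genotype differed by more than counting noise (chi-square per degree of freedom 9.98 to 13.4). Replicate numbers were not taken as pairs. A few list members were left out of the report and of the counts given for their lists.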

Additional observations from a re-analysis of the deposited data

How the results depend on the processing

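Of 410 values for single genes under the alternatives, 369 kept their direction and side of the threshold, 11 lost a call, 20 gained one and 10 turned, all 10 with 1 library left out; where no reason is named, the cause was not tested. In N159S/N159S against +/+ T cells, between 2 and 4 of the 10 genes were called with 1 library left out, 2 without either +/+ library (Anxa2 and Ly6c1, or Ahnak and Ly6c1). In +/N159S 4 were called with no filter, 4 with the term for genes detected, 4 by the likelihood ratio test and 1 to 2 with 1 library left out. Between the variant genotypes the count was 2 with DESeq2, 3 with no filter, 4 with the term for genes detected, 2 by the likelihood ratio test, 0 to 1 with 1 library left out and 0 with at least 10 counts in every library, which drops S100a4 and S100a6. For the departure from the midpoint it was 2, 4, 4, 3, 0 to 1 and 0 in the same order. Of the other effector and memory genes 14, 17 and 11 were called in N159S/N159S with no filter, with the term for genes detected and by the likelihood ratio test (5 to 9 with 1 library left out), and in +/N159S 11 with that term (3 to 7 with 1 library left out). Over all genes, the 631, 212 and 180 calls became 1047, 710 and 553 with no filter, 1760, 1385 and 834 with the term for genes detected, 1042, 640 and 473 by the likelihood ratio test, and 671, 328 and 245 with DESeq2.

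With 1 library left out, log2 fold changes ran from −0.71 to 0.020 (Cd44, N159S/N159S), from −0.12 to 0.73 (Cd44) and −0.45 to 0.25 (S100a11) in +/N159S, and between the variant genotypes from −0.39 to 0.23 (Ly6c1), −0.96 to 0.62 (Ly6c2), −0.63 to 0.062 (S100a11) and −0.32 to 0.47 (Lgals3).

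Deviations of same-numbered libraries correlated at −0.167 (+/+ with +/N159S), −0.216 (+/+ with N159S/N159S) and 0.238 (between the variant genotypes) over 12117 genes. The signs differed and no label ties the numbers to a batch, so they were not taken as pairs. With the replicate number as a block, 3 of the 10 genes were called in N159S/N159S (without Ahnak, FDR = 0.0811, edgeR, Benjamini-Hochberg adjusted), 1 in +/N159S, 0 between the variant genotypes and 0 for the midpoint, with 495, 149, 135 and 91 genes called in all. Ly6c2, S100a4, S100a6 and Lgals3 had at most 67 reads in a library, which limits the precision of their fold changes.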

Other observations

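The CD8 and NK markers summed to 67.4 and 71.2 CPM in +/+, 60.4 and 56.0 CPM in +/N159S, and 45.0 and 41.3 CPM in N159S/N159S, with Cd8b1 at 20.1 and 13.2, 12.4 and 8.76, and 3.14 and 2.05 CPM in that order. Cd8b1 fell by 2.65 on the log2 scale in N159S/N159S against +/+ (standard error 0.29, FDR = 0.000379, edgeR, Benjamini-Hochberg adjusted). Of the 6 markers tested, 5 were lower and 1 higher in this comparison, and Cd8b1 alone was called. The higher one was Gzma, at 0.429 and 0.404 CPM in +/+ and 2.27 and 3.08 CPM in N159S/N159S (FDR = 0.0555, edgeR, Benjamini-Hochberg adjusted). Plasma cell markers summed to 59.9 to 69.6 CPM, and 1 of them, Irf4, which activated T cells also express, fell by 2.43 in this comparison (standard error 0.22, FDR = 0.000120, edgeR, Benjamini-Hochberg adjusted). This list had Jchain at 6 to 30 reads and Sdc1 at 1 to 9 reads. NKT and innate-like T cell markers summed to 3.03 to 8.76 CPM, with Zbtb16 at 7 to 38 reads, and Ncr1 had 0 to 8 reads. Erythroid markers summed to 0.687 to 6.49 CPM, and 4 of 6, Hbb-bs among them, had no read in any library. The 7 T cell identity genes summed to 3028 to 3561 CPM, highest in the +/+ libraries. The myeloid markers Lyz2, Csf1r and Itgam had 38 to 118, 29 to 90 and 81 to 132 reads in a library.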
